A study of Mus musculus with 6 samples.

Results

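Aldehyde dehydrogenases and reductases, grouped for the clearance of aldehydes made from peroxidised lipids, were examined in keratinocytes of Gpx4 knockout mice. They were the dehydrogenases Aldh1a3, Aldh2, Aldh3a1, Aldh3a2, Aldh3b1 and Aldh1l2, and the reductases Akr1a1, Akr1b8, Cbr1 and Ptgr1. Among them, Aldh1l2 acts on a folate. Members were taken by gene symbol. All 10 were found, on 19 of the 45037 probe sets tested and as 10 of the 18193 genes that had a probe set of their own. The cells were primary keratinocytes of newborn mice on a mixed C57BL6/FVB background in medium with 100 nM sodium selenite. In the knockout, Gpx4 had been removed by a cre recombinase under the keratin 14 promoter, the promoter of a keratin of the basal epidermal layer. Cells of knockout mice and of control littermates were pooled by genotype within each of 3 litters, called A, B and C. There were thus 3 control and 3 knockout arrays, described in the labels as biological replicates. The labels call the other group control and give no Gpx4 or cre alleles for it. Levels below are quantile-normalized array intensities in arbitrary units, and log2 changes are knockout minus control after 16 was added to each intensity, which makes the changes of dim genes look smaller. Where 3 values of a group are given, they are those of litters A, B and C in that order, and ± stands for the SE of a log2 change from limma (n = 3 litters) or, where said, for an SD.

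Gpx4 reduces lipid hydroperoxides in membranes. Hydroperoxides that are not reduced break down to reactive aldehydes such as hydroxynonenal, which form adducts with proteins. Cells clear these aldehydes by oxidation to acids (aldehyde dehydrogenases), by reduction to alcohols (aldo-keto and carbonyl reductases), by reduction of the carbon double bond (Ptgr1), or by conjugation to glutathione (Gsta4). The comparison asks whether transcripts of these enzymes differed between control and Gpx4 knockout keratinocytes.

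No member passed the test. The limma fit over all probe sets, with litter as a block, called 0 of the 10 members at an adjusted p of 0.05, against 0.616% of all genes and 0.42% of all probe sets (0.158% higher and 0.262% lower). At an unadjusted p under 0.05 there were 2 members higher in the knockout (Akr1b8 and Aldh1l2) and 1 lower (Akr1a1), against 18.1% of all genes (8.66% higher and 9.45% lower). The knockout arrays lay wholly above the control arrays for Aldh1l2 and wholly below them for Akr1a1 and Cbr1, against 20.6% of genes without overlap (9.81% above and 10.8% below). After quantile normalization the sign was the same in all 3 litters for 6 of the 10 (39.4% of all genes): 2 higher and 4 lower. The median log2 change of the members was -0.17, with 2 above 0 and 8 below, and the median of all genes was 0.00039. With 16 added, the 95% intervals of the 10 members ran from 0.673-fold, the lower bound for Aldh3a1, to 1.62-fold, the upper bound for Aldh1l2. For the dim Aldh3a1 and Aldh3b1 that limit rests on the added 16: with 1 added in its place, their lower bounds were -1.92 and -1.53 (log2), past 2-fold lower. With either constant and quantile normalization, no interval of the other 8 members reached 2-fold in either direction.

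**Figure D1:**
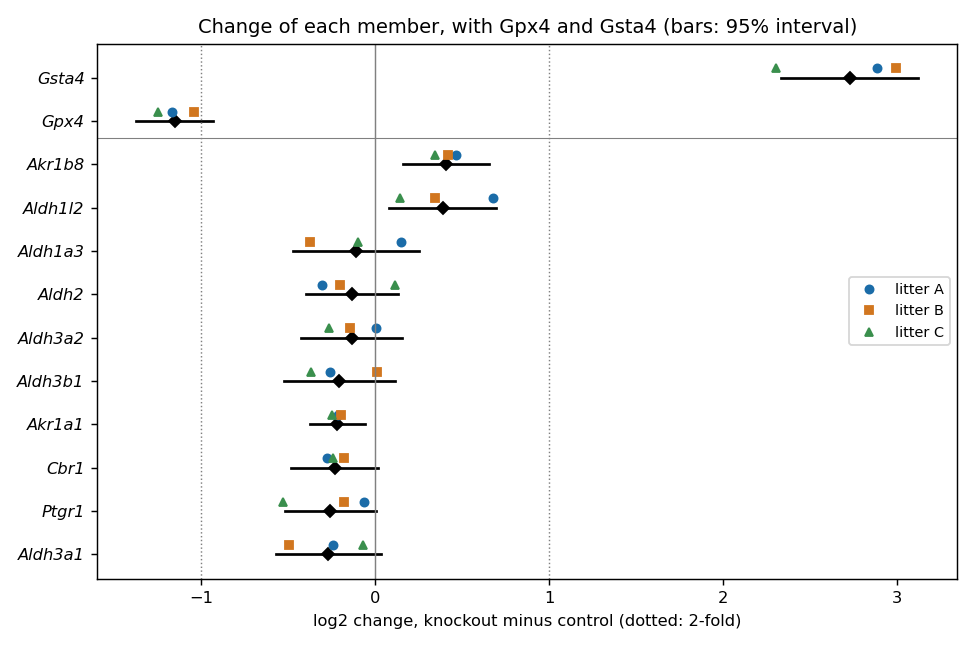
Log2 change (knockout minus control, x axis) of each member, with Gpx4 and Gsta4 above the line for scale. Diamonds and bars are the limma estimate and its 95% interval, coloured symbols are the 3 litters, and dotted lines mark 2-fold. The members lie between -0.27 and 0.41, and Gsta4 lies at 2.73.

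The targeted gene and the glutathione branch of the same pathway set the scale. The brighter probe set of Gpx4 had intensities of 497, 551 and 536 in controls and 212, 260 and 216 in knockouts. Its log2 change was -1.15 ± 0.091 (limma adjusted p = 0.0206), or 0.45-fold, so part of the signal remained in knockouts. The source of that signal was not tested. The dimmer probe set of Gpx4 was at -1.40 ± 0.21 and did not pass (limma adjusted p = 0.063). It too had all knockouts below all controls. Gsta4, the glutathione transferase of lipid aldehydes, had 29.8, 25.4 and 27.2 in controls and 322, 313 and 197 in knockouts. Gsta4 rose by 2.73 ± 0.16 on the log2 scale (limma adjusted p = 0.00922), with a 95% interval from 2.33 to 3.12. The highest upper bound among the 10 members was 0.70, so the interval of no member met that of Gsta4. Gsta4 had the highest change of all 18193 genes, so this comparison does not set the members apart from other genes. Gpx4 did not pass as deposited (-1.34, adjusted p = 0.122), and with only 2 litters, without A or without B, neither gene passed (Gsta4 at 2.71 and 2.57, adjusted p = 0.09 and 0.147; Gpx4 at -1.15 and -1.21, adjusted p = 0.162 and 0.278). Without an intensity trend in the error, neither passed either (adjusted p = 0.0603 for Gsta4 and 0.1 for Gpx4).

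The 4 reductases differed in sign, with Akr1b8 higher and Akr1a1, Cbr1 and Ptgr1 lower in the knockout of every litter after quantile normalization. Akr1b8, an aldo-keto reductase related to aldose reductase that reduces hydroxynonenal and retinaldehyde, had the highest change of the members. Its intensity was 146, 129 and 105 in controls and 207, 178 and 137 in knockouts. Each knockout array was above the control of its own litter, by 0.46, 0.42 and 0.34 (log2), although the knockout of litter C lay below the control of litter A, so the groups overlapped. In the deposited intensities litter C turned the other way, with 140.5 in the control and 116 in the knockout. The log2 change was 0.41 ± 0.10, or 1.33-fold with an interval from 1.12 to 1.58, and did not pass (limma adjusted p = 0.154).

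Akr1a1, the aldehyde reductase that also serves ascorbate synthesis in mice, differed the other way. Its brightest probe set had 4566, 4602 and 4292 in controls and 3939, 4020 and 3612 in knockouts. All knockout arrays were below all control arrays, and the differences were alike in the 3 litters (-0.21, -0.19 and -0.25). In the deposited intensities the groups did not overlap either, but litter C, at 5139.6 in the control and 3192 in the knockout, was further apart than A (4263 and 3611) and B (4892 and 4039). After normalization the log2 change was -0.22 ± 0.066, with an interval from -0.38 to -0.06 (limma adjusted p = 0.212). The other 3 probe sets of Akr1a1 gave -0.23, -0.17 and -0.20, each lower in the knockout of all 3 litters, and none passed.

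Cbr1, the cytosolic carbonyl reductase, acts on prostaglandins, quinones and lipid aldehydes. It had 169, 155 and 148 in controls and 137, 135 and 123 in knockouts, so every knockout array was below every control. In the deposited intensities the groups overlapped, since the knockout of litter B (143) lay just above the control of litter A (142), though each litter was still lower. The log2 change was -0.23 ± 0.10 (limma adjusted p = 0.365), with an interval from -0.48 to 0.014 that included 0. Ptgr1, which reduces the double bond of alkenals and inactivates leukotrienes and prostaglandins, had 655, 756 and 1083 in controls and 626, 667 and 744 in knockouts. The control of litter C was the brightest array, and the differences of the litters spread from -0.063 in A through -0.18 in B to -0.53 in C. The log2 change of Ptgr1 was -0.26 ± 0.11 (limma adjusted p = 0.349), and it was -0.12 without litter C.

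**Figure D2:**
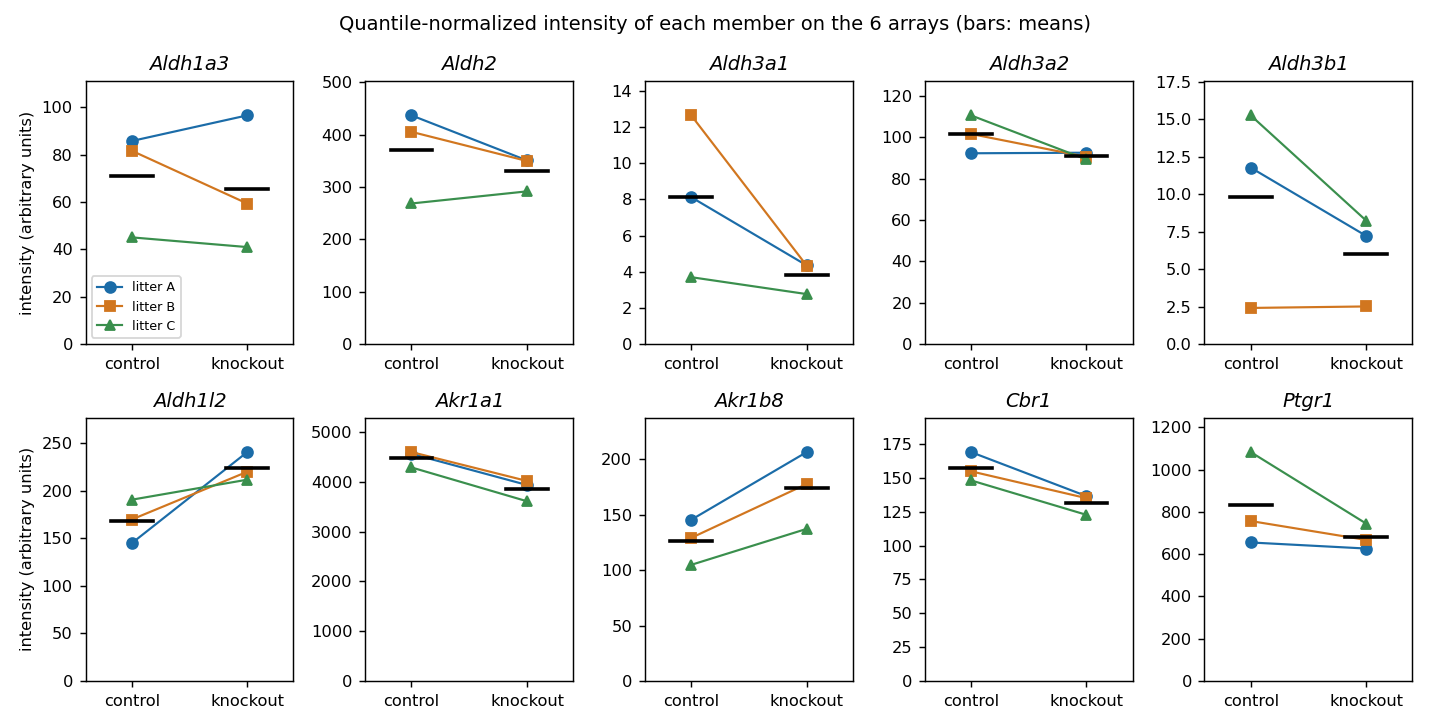
Quantile-normalized intensity (y axis, arbitrary units, from 0) of each member in the control and knockout arrays. Lines join the arrays of 1 litter and black bars are group means (n = 3). For Akr1b8 and Aldh1l2 the line of each litter runs upward, and for Akr1a1, Cbr1, Ptgr1 and Aldh3a1 each runs downward.

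The promoters of the 4 reductases are shown because each of these genes had the same sign of change in all 3 litters after quantile normalization, in opposite directions, so that their upstream sequences can be read beside the values. They are the 250 bases before a transcription start from RefSeq, build GRCm38.p6, 5′ to 3′ on the strand of the gene. Capitals mark matches to the motifs named after them. The Ptgr1 gene as annotated reaches to 58987131 on chr4, so part of its window lies inside the gene. Akr1b8 lies at chr6:34353896-34354145 (+ strand), Akr1a1 at chr4:116651675-116651924 (- strand), Cbr1 at chr16:93607587-93607836 (+ strand) and Ptgr1 at chr4:58987079-58987328 (- strand).
Akr1b8: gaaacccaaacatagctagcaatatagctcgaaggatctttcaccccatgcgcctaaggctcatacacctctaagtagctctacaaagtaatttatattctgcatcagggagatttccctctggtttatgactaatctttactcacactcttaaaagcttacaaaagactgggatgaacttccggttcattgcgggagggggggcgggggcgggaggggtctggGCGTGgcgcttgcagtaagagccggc
Akr1a1: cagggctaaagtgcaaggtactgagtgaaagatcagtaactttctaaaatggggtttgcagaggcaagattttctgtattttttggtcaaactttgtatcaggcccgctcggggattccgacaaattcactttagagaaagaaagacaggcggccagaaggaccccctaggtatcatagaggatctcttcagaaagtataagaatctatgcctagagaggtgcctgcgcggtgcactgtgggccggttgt
Cbr1: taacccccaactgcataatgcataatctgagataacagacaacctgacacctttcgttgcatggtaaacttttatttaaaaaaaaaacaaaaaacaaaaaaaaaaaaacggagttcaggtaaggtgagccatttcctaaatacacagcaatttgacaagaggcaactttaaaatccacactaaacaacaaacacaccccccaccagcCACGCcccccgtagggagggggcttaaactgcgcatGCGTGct
Ptgr1: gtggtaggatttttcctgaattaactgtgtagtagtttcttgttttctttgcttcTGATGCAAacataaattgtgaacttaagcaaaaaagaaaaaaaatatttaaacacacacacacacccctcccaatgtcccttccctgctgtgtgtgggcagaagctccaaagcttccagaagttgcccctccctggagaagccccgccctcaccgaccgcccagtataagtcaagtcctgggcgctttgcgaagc

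A RefSeq promoter was matched for 6 of the 10 members: these 4, Aldh3a2 and Aldh3b1. Aldh1a3, Aldh2, Aldh3a1 and Aldh1l2 had no match. The windows of Aldh3a2 (chr11:61267187-61267436) and Aldh3b1 (chr19:3929779-3930028) lie inside the annotated genes, which reach to 61267528 and 3930898. Each window was searched on both strands for 4 motifs. The antioxidant response element core TGACNNNGC matched 0 of the 6 windows and 10.2% of all 32851 promoter windows of that length, and the AP-1 site TGANTCA matched 0 of the 6 and 6.75% of all. The aryl hydrocarbon response element core GCGTG, a short motif that 28.2% of all windows hold, matched 3 of the 6: Akr1b8 (1 match, its first base 26 bases before the start), Cbr1 (2 matches, 1 on each strand) and Aldh3a2 (1 match). The C/EBP-ATF element core TGATGNAA matched Ptgr1, 195 bases before the start, and 3.45% of all windows. The first and second motifs can overlap. Akr1a1 held none of the 4, which says only that these letters are not in this window.

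Among the dehydrogenases, Aldh1l2 had the highest change. It is the mitochondrial formyltetrahydrofolate dehydrogenase, whose substrate is a folate and not a lipid aldehyde. Its intensity was 145, 170 and 191 in controls and 241, 220 and 212 in knockouts. All knockout arrays lay above all controls, but the difference went from 0.68 in litter A to 0.34 in B and 0.14 in C. In the deposited intensities (122, 179 and 258 in controls, 204, 237 and 178 in knockouts) the control of litter C was the brightest array, so litter C turned to lower and the groups overlapped. The log2 change was 0.39 ± 0.13 (limma adjusted p = 0.249), or 1.31-fold with an interval from 1.05 to 1.62. Without litter C it was 0.51 (adjusted p = 0.0577), and without litter A 0.25 (adjusted p = 0.694).

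Aldh2, the mitochondrial enzyme that oxidises acetaldehyde and hydroxynonenal, had 437, 405 and 269 in controls and 351, 350 and 292 in knockouts. The knockout was the dimmer array in litters A and B (-0.30 and -0.20) and the brighter one in litter C (0.11), whose control was the dimmest of the 6. In the deposited intensities (363, 420.2 and 366 in controls, 298, 378 and 245 in knockouts) the knockout was the dimmer array in all 3 litters, so the opposite sign of litter C was seen after quantile normalization and not before it. The log2 change was -0.13 ± 0.11, with an interval from -0.40 to 0.13 (limma adjusted p = 0.643). The other 4 probe sets of Aldh2 had group means of 9.14 to 19.5, near or under the median of the arrays. They disagreed in sign, and 1 of them lay higher in all 3 knockouts (10.2 ± 2.07 against 19.5 ± 6.49, SD), at 0.43 ± 0.15 on the log2 scale (limma adjusted p = 0.283).

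Aldh3a2, the fatty aldehyde dehydrogenase of the endoplasmic reticulum, is tied to skin: its loss in humans causes Sjögren-Larsson syndrome, which includes ichthyosis. It had 92.3, 102 and 111 in controls and 92.6, 90.6 and 89.3 in knockouts. The knockout arrays were nearly equal, and litter A showed no difference (0.0037). The log2 change was -0.13 ± 0.12 (limma adjusted p = 0.668), with an interval from -0.43 to 0.16, and from -0.89 to 0.22 with intensities scaled as deposited.

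Aldh1a3 oxidises retinaldehyde to retinoic acid. Its brightest probe set had 85.8, 81.7 and 45.1 in controls and 96.6, 59.4 and 41 in knockouts, and the litters did not share a sign. The arrays of a group spread more (70.8 ± 22.4 in controls and 65.7 ± 28.3 in knockouts, SD) than the group means differed. The log2 change was -0.11 ± 0.15 (limma adjusted p = 0.797), and the other 2 probe sets gave 0.046 and 0.096. Aldh3a1, an inducible dehydrogenase abundant in the cornea, and Aldh3b1, which acts on long-chain aldehydes, were dim. Aldh3a1 had 8.12, 12.6 and 3.7 in controls and 4.35, 4.33 and 2.77 in knockouts, and Aldh3b1 had 11.8, 2.42 and 15.2 against 7.22, 2.52 and 8.23. All of these values were under 16, a range that held 45.4% to 50.1% of what each array measured, and the table gives no detection calls. The log2 changes were -0.27 for Aldh3a1 and -0.21 for Aldh3b1 (limma adjusted p = 0.389 and 0.537). Their size follows the added constant: they were -0.81 and -0.47 with 1 added, and -0.088 and -0.074 with 64 added, and neither passed (adjusted p from 0.38 to 0.701).

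The size of these changes moved with the scaling of the arrays, and in litter C the sign moved too for Akr1b8, Aldh1l2 and Aldh2, as given above. With intensities scaled as deposited, the log2 change of Akr1b8 was 0.22 and that of Aldh1l2 0.18, while Akr1a1 was at -0.40, Cbr1 at -0.43 and Ptgr1 at -0.43. The median of the members was then -0.30 and that of all probe sets -0.066, against -0.17 and 0.0019 with quantile normalization. As deposited, the lowest interval bound of a member was -1.06 (Ptgr1) and the highest 0.80 (Aldh1l2), so a 2-fold lower level of Ptgr1 lay within its interval on that scale. A ratio of probe sets within an array cancels a factor common to the array, but not a difference that depends on intensity. In litter C the deposited median was 20.4 in the control and 16.4 in the knockout. The trimmed means of these arrays were 114 and 73.4, so more than a common factor set them apart. From the deposited intensities, without the added 16, the log2 ratio of Akr1b8 to Akr1a1 was higher in the knockout by 0.75, 0.75 and 0.41 in litters A, B and C, and that of Aldh1l2 to Akr1a1 by 0.98, 0.68 and 0.15. Akr1b8 and Aldh1l2 were the members with changes above 0 and Akr1a1 was among those below 0, so the choice favoured unequal change. The ratios do not show which of the genes moved. They were formed after the values were seen and were not tested.

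**Figure D3:**
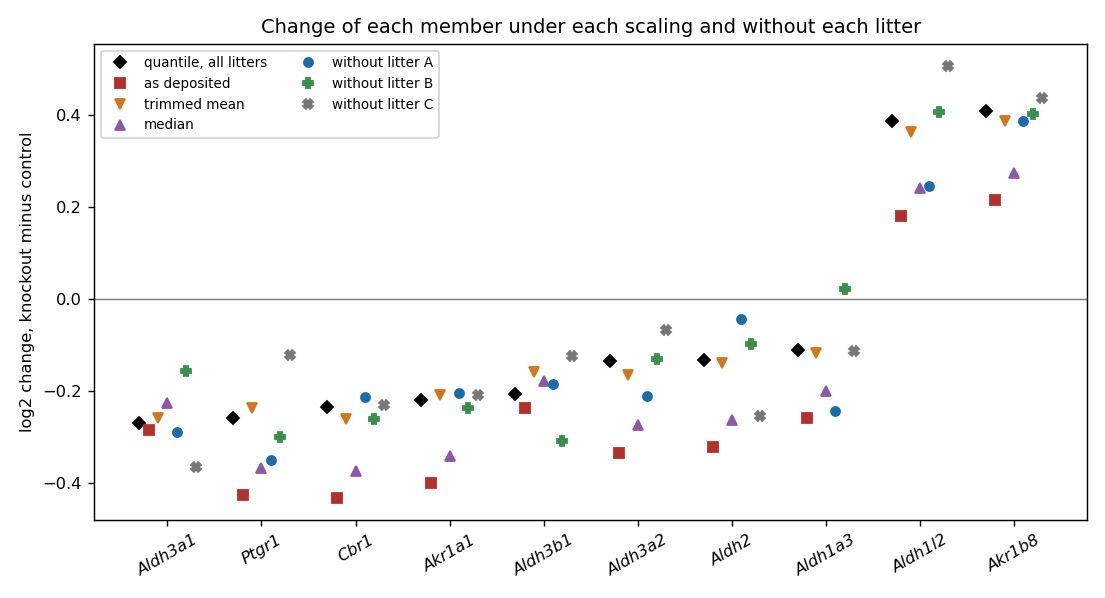
Log2 change (y axis) of each member (x axis) under 4 scalings of the arrays with all litters, and under quantile normalization without each litter. Akr1b8 and Aldh1l2 are above 0 under all 7, and Aldh1a3 crosses 0 without litter B (0.023).

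The related enzymes were examined as lists. Of 14 other aldehyde dehydrogenases 0 passed in limma (5 at an unadjusted p under 0.05), and their median was -0.14. Aldh18a1, which makes the proline precursor, had the smallest p among them, with 375, 415 and 525 in controls and 608, 581 and 605 in knockouts (0.45 ± 0.11, adjusted p = 0.151). Aldh1l1, the cytosolic counterpart of Aldh1l2, lay the other way (-0.72 ± 0.20, adjusted p = 0.182), with 40, 40.7 and 22.8 against 15.9, 11.1 and 15.7. Aldh7a1, of lysine breakdown, was at 0.30 ± 0.10 and did not pass either (adjusted p = 0.266).

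Of 12 other aldo-keto reductases 0 passed (1 at an unadjusted p under 0.05, median -0.03). That one was Akr1c18, a hydroxysteroid dehydrogenase that inactivates progesterone, with 82 and 110 in the controls of litters A and B, 285 in that of C, and 53.4, 64.7 and 84.9 in knockouts (-0.91 ± 0.22, limma adjusted p = 0.147). Akr1c14 and the aflatoxin aldehyde reductase Akr7a5 followed by p, at -0.19 and 0.19. Akr1c14 was very dim, with means of 2.71 in controls and 0.317 in knockouts, against 218 and 247 for Akr7a5. Of 15 other carbonyl, alkenal and alcohol oxidoreductases 0 passed (2 at an unadjusted p under 0.05, median -0.0052). The mitochondrial carbonyl reductases Cbr2 and Cbr4 had the smallest p, at -0.69 ± 0.17 and -0.39 ± 0.11 (limma adjusted p = 0.152 and 0.181), so both lay on the same side of 0 as Cbr1, and the lipid droplet enzyme Hsd17b11 was at 0.31 ± 0.15.

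Of 10 enzymes and exporters of glutathione conjugation, Gsta4 rose and none fell (median 0.083). Gstm2 was at -0.87 ± 0.17 and Gsta2 at 0.67 ± 0.15, and neither passed (limma adjusted p = 0.105 and 0.129). Of 11 targets of the transcription factor NRF2, which is known to induce Akr1b8, Cbr1 and Ptgr1, 0 passed (4 at an unadjusted p under 0.05, median 0.17). The thioredoxin reductase Txnrd1 (0.98 ± 0.18, limma adjusted p = 0.0893), the glutathione reductase Gsr (0.47 ± 0.10) and the malic enzyme Me1 (-0.36 ± 0.086) had the smallest p. Of 5 targets of the aryl hydrocarbon receptor, which induces Aldh3a1, 0 passed (1 at an unadjusted p under 0.05). It was Tiparp, an ADP-ribosyltransferase, at 0.50 ± 0.11 (limma adjusted p = 0.126), and Cyp1b1 and Cyp1a2 were at -0.29 and -0.14. Cyp1a2 was very dim, with means of 3.11 in controls and 1.21 in knockouts.

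**Figure D4:**
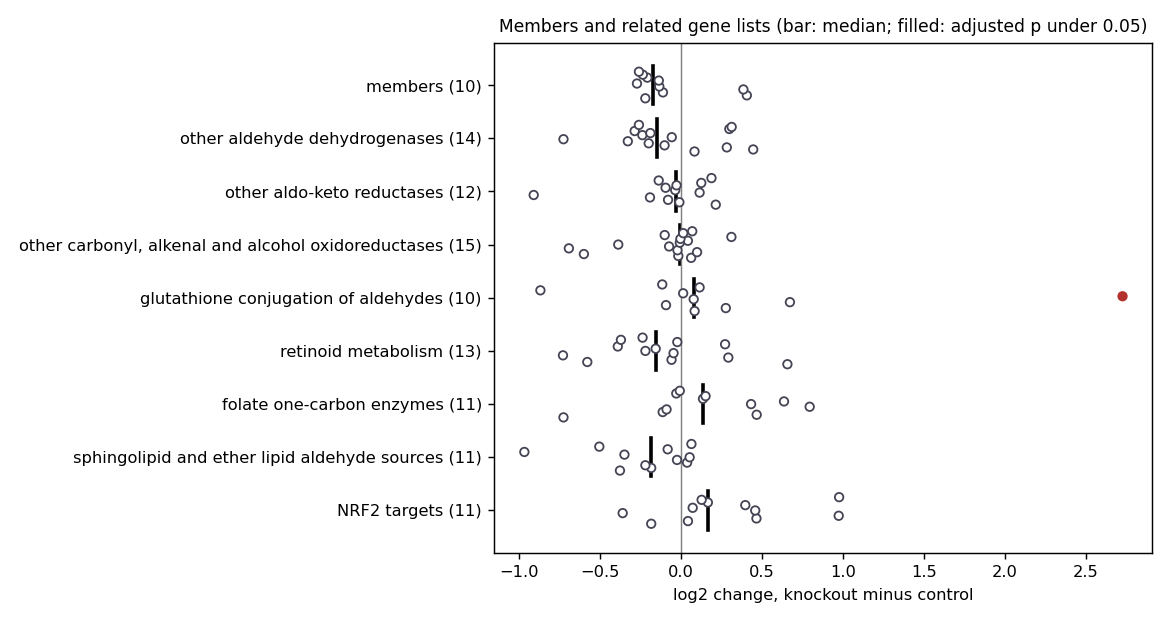
Log2 change (x axis) of the members and of 8 related lists (number measured in brackets), with 1 point per gene and the median as a bar. The 1 filled point, Gsta4 at 2.73, passed an adjusted p of 0.05.

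Lists tied to the substrates of single members were also counted. Beside Aldh1l2, 0 of 11 folate enzymes passed (5 at an unadjusted p under 0.05, median 0.14). The mitochondrial Mthfd1l had 187, 193 and 246 in controls and 396, 354 and 365 in knockouts (0.80 ± 0.12, limma adjusted p = 0.061), and the mitochondrial glycine cleavage protein Gcsh (0.47 ± 0.089) and Mthfd2l (0.64 ± 0.16) were next. Beside Aldh1a3, 0 of 13 retinoid genes passed (4 at an unadjusted p under 0.05, median -0.15), with the retinoic acid carrier Crabp2 at -0.58 ± 0.12, the retinaldehyde reductase Dhrs3 at -0.73 ± 0.16 and Rdh10 at -0.39 ± 0.13. Beside Aldh3a2, 0 of 11 genes that make fatty aldehydes or their precursors passed (2 at an unadjusted p under 0.05, median -0.18). Phyh, the peroxisomal enzyme of branched fatty acid breakdown, did not pass, with 146, 141 and 90.2 in controls and 74.3, 52.8 and 42.7 in knockouts (-0.96 ± 0.13, limma adjusted p = 0.0514). The kinase Sphk1 was at -0.50 ± 0.16 and the ceramidase Acer3 at -0.22 ± 0.11.

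Leaving out litter C gave more calls, 5.92% of all probe sets (2.9% higher and 3.02% lower), and added calls in each of these lists except that of the other aldo-keto reductases. Among the folate enzymes Mthfd1l, Gcsh, Mthfd2l and Mthfd2 then rose and Aldh1l1 fell. Aldh18a1 rose among the other dehydrogenases, where Aldh1l1 was also counted, and Cbr2 and the alcohol dehydrogenase Adh7 fell among the oxidoreductases. Gstm2 fell in the conjugation list, in which Gsta4 still rose, and Phyh fell in the fatty aldehyde list. Txnrd1 and the heme oxygenase Hmox1 rose among the NRF2 targets, Tiparp among those of the aryl hydrocarbon receptor, and the retinoic acid carrier Crabp1 among the retinoid genes. A call appeared on 1 of the 19 probe sets of the members. The second brightest probe set of Akr1a1 was then at -0.33 ± 0.071 (limma adjusted p = 0.0464), and its brightest at -0.21 (adjusted p = 0.167). Over the 6 arrays the genes most like Akr1b8, by Pearson's r of log2 values among 6205 genes with a mean intensity of at least 100, were Tnnt2 (0.995), Arrdc1 (0.995) and Tom1l2 (0.994), and those most like Akr1a1 were Acvr1b (0.996), Tmem63a (0.994) and Zkscan1 (0.994). With 6 arrays in 2 groups, 104 and 338 of these genes exceeded 0.9.

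Some features of the pools moved with genotype, and their part in these results was not tested. The keratinocyte markers were bright on all arrays, with summed levels of 31587 to 33804 in controls and 31505 to 32648 in knockouts over 10 genes. Of these 10, 4 had a log2 change above 0 and 6 below, and 0 passed. At an unadjusted p under 0.05 there were 2, against 18.1% of all genes, and both were lower. They were Trp63 (-0.43 ± 0.076, limma adjusted p = 0.0816) and Lamb3 (-0.50 ± 0.19, adjusted p = 0.296). The 6 melanocyte markers summed to 4521 to 4674 in controls and 6235 to 6890 in knockouts, and 2 of them, Mlana and Tyrp1, rose (as deposited neither passed, with adjusted p of 0.209 and 0.538). All 6 had a log2 change above 0. The 8 fibroblast markers summed to 216 to 613 in controls and 444 to 652 in knockouts. Of these 8, 6 had a log2 change above 0 and 2 below (median 0.41), and 0 passed. The brightest, Col1a1, had 43.6, 30.4 and 135 in controls and 117, 127 and 212 in knockouts, so each litter was higher. The 6 immune markers summed to 77.3 to 127 in controls and 96.9 to 146 in knockouts, and the 5 muscle markers to 54.1 to 89.9 and 94.2 to 135. Of the immune markers 4 had a log2 change above 0 and 2 below, and all 5 muscle markers lay above 0. In both lists 0 passed. All 5 endothelial markers had means under 16, as did Lum among fibroblast, Ptprc, Cd207 and Tyrobp among immune, and Myh11, Myog and Ckm among muscle markers. In bulk RNA, fewer cells of a type and less RNA per cell cannot be told apart. Y-linked Eif2s3y had 155, 178 and 185 in controls and 3.18, 0.667 and 4.62 in knockouts, and X-linked Xist rose from 476 ± 77.1 to 1234 ± 23.4 (SD, n = 3; as deposited limma adjusted p = 0.177), and all 3 Y-linked genes measured fell, so genotype and the sex of the pooled mice cannot be told apart. None of the 10 members lies on a sex chromosome, which does not tell sex and genotype apart for them.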

How the data were processed

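RNA of 3 control and 3 knockout keratinocyte pools was extracted with Trizol and labelled with biotin by in vitro transcription, per the labels' protocols, and measured on 1-colour Affymetrix arrays. The authors deposited 1 linear intensity per probe set and array. Their background correction, summarising and scaling are not given in the sources used here. The median intensity of an array was 15.9 to 20.4, and the mean trimmed of 2% at each end was 72.8 to 114, so the arrays differed in overall brightness. With 3 arrays a group, their number limits what can be detected.

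Of 45101 probe sets 64 controls were left out. Intensities were quantile-normalized, 16 was added, and log2 values were fitted with limma 3.58.1 in R 4.3.3 (lmFit, eBayes with an intensity trend), with litter as a block, since the submitters compared pools of the same litter. Residuals of same-litter arrays correlated with r = 0.175, 0.0474 and 0.207 for litters A, B and C. P-values are two-sided and were Benjamini-Hochberg adjusted over all 45037 probe sets, with a threshold of 0.05. Intervals are 95% and use the moderated error. The fit was tested on simulated arrays, with changes larger than those estimated for the members and placed in the brighter probe sets. That test does not show how well small changes, or changes of dim genes, are detected.

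Symbols came from the platform annotation of 2016: 34945 probe sets had 1 gene, 932 several and 9160 none listed. A gene with several probe sets is given by the brightest on average, and the others beside it. Where copies of a gene are alike, a probe set may also bind their transcripts. Named were all members, Gpx4, Gsta4, listed genes that passed, up to 3 of each related list by unadjusted p, and the genes most like 1 higher and 1 lower member. Sequences came from RefSeq tables of GRCm38.p6. The members and lists were chosen with earlier results of these data known. Alternatives were the scaling, the pseudocount, a filter on dim probe sets, the block, the trend, the mean over probe sets, and each litter left out.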

Additional observations from a re-analysis of the deposited data

How the results depend on the processing

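Under the 12 alternatives 0 of the members tested passed by the brightest probe set or the mean over probe sets, with adjusted p from 0.0577 to 0.99. Without litter C the second brightest probe set of Akr1a1 did pass (limma adjusted p = 0.0464), as given above. The sign of Akr1b8, Aldh1l2, Akr1a1, Cbr1, Ptgr1 and Aldh3a2 held under all 12, and that of Aldh3a1 and Aldh3b1 under the 11 that tested them. Aldh1a3 turned to 0.011 and Aldh2 to 0.032 with the mean of a gene's probe sets, and Aldh1a3 lay between -0.24 and 0.023 with a litter left out. The median of the members was -0.30 as deposited, -0.24 with arrays shifted to the same median, -0.091 with a pseudocount of 64, -0.13 without the 40% dimmest probe sets, which drops Aldh3a1 and Aldh3b1, and -0.21 to -0.12 with a litter left out.

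Over all probe sets the number called, 189 with 71 higher, was less stable. As deposited it was 35 with 3 higher, with a common trimmed mean 291 with 113 higher, with a common median 710 with 198 higher, with a pseudocount of 1 601 with 271 higher, with 64 59 with 27 higher, without the dimmest probe sets 1130 with 521 higher, and without a trend 6 with 0 higher (6655 at an unadjusted p under 0.05). The share of higher calls was 37.6% and became 8.57% as deposited and 27.9% with a common median. With a litter left out 0 to 2666 passed, 0 to 1306 of them higher: 3 without A, 0 without B (limma, 3695 at an unadjusted p under 0.05) and 2666 without C. Without the replicate block 135 passed, 60 of them higher, and no call on a member changed. Leaving out 1 array with the block leaves its partner without a pair, so litters were left out whole. The causes were not tested.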

Other observations

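Some probe sets are annotated to several genes of these families and were kept out of the counts. One shared by Gsta1, Gsta2 and Gm3776 had intensities of 41, 33.9 and 26.7 in controls and 94.1, 86.9 and 55.5 in knockouts, for litters A, B and C in that order. Its log2 change was 0.91 ± 0.14 (limma adjusted p = 0.0665). All knockout arrays lay above all controls. The 2 probe sets shared by Aldh3b2 and Aldh3b3 gave 0.042 and 0.00046, and the one shared by Akr1c12 and Akr1c13 gave -0.069, each with means under 17.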
